A study of Danio rerio with 4 samples.

Results

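The Hox genes are homeobox transcription factor genes that lie side by side in clusters, and the members with 1 gene symbol ending in a cluster letter, a paralogue number and a copy letter were taken from a zebrafish expression array. They were 42 of the 8793 genes named on the array, read by 59 of its 15617 probe sets, and the brightest probe set of each gene (the highest mean log2 intensity over all arrays) stood for the gene. Whole embryos raised in 1% glucose from 12 to 36 hours post fertilisation (hpf) were set against control embryos of 36 hpf, with 2 biological replicates and 1 array per replicate in each. RNA came from whole embryos, so no tissue was isolated. Both groups were incubated alike. The strain is not given in the labels, nor is it said whether the replicates came from separate clutches, so the p-values may measure only the spread between these samples.

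Each Hox protein binds DNA through its homeodomain, usually with cofactors of the Pbx and Meis families, and gives cells a position along the head-to-tail axis. Genes of low paralogue number, at one end of a cluster, are switched on early and reach far forward into the hindbrain. Genes of high number, at the other end, act late and in the tail, with a second phase in the fin buds. Retinoic acid and Cdx factors help to start this series, and Polycomb and Trithorax proteins keep it. Teleost fish duplicated their genome, so zebrafish have up to 2 copies of a cluster, here written aa, ab, ba, bb, ca, cb and da. In mouse, Hoxb4 and the Hoxa9 group are also known from blood stem and progenitor cells, the cells the series is about.

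The array named 42 of the 49 protein-coding Hox genes in the RefSeq gene table of assembly GRCz12tu, with 6 of 7 in cluster aa, 5 of 5 in ab, 10 of 11 in ba, 3 of 4 in bb, 9 of 11 in ca, 3 of 4 in cb and 6 of 7 in da. The 17 tag probe sets of the array have no target in fish. The brightest of them read 117.7 and 79.1 on the glucose arrays and 109.1 and 112.0 on the control arrays, and the highest of these values, 117.7, serves here as the tag level for all 4 arrays. Of the Hox genes, 28 lay above it on all 4 arrays, 5 on some of them and 9 on none. The 9 genes were hoxa1a, hoxb1a, hoxc3a, hoxd3a, hoxb7a, hoxa11a, hoxc11b, hoxc12b and hoxd13a. Set against the brightest tag of each array itself, 29 genes lay above it on all arrays, 9 on some and 4 on none. The 4 were hoxa1a, hoxc3a, hoxc11b and hoxd13a, while the other 5 dim genes exceeded it on the array of glucose replicate 2 alone. All 42 passed the filter on dim probe sets, so none is missing from the counts. Intensities of different probe sets are not on a common scale, so genes are compared by their difference between groups and not by their level.

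Between glucose and control embryos 1 Hox gene passed the test. Of the 42 genes, 1 fell and 0 rose in limma with a variance trend on intensity, at a threshold of 0.10 on the p adjusted by Benjamini-Hochberg, against 0.712% of all 13628 tested probe sets that fell and 1.29% that rose. At an unadjusted p under 0.05, 2 Hox genes were lower (background 5.26%) and 0 were higher (background 6.22%). The log2 difference, glucose minus control, was within 0.2 of 0 for 23 genes (54.8%) and beyond 0.5 for 7 (16.7%), near the 50.9% and 15.8% of all tested probe sets. It was negative for 25 genes and positive for 17, with a median of -0.0543, beside 6781 negative and 6847 positive and a median of 0.00148 over all tested probe sets. Without control replicate 2 the Hox median was -0.13. Single Hox differences had a standard error between 0.125 and 0.915, with a median of 0.197, so that a change of the size of most of these differences could not be detected with 2 arrays a group.

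**Figure D1:**
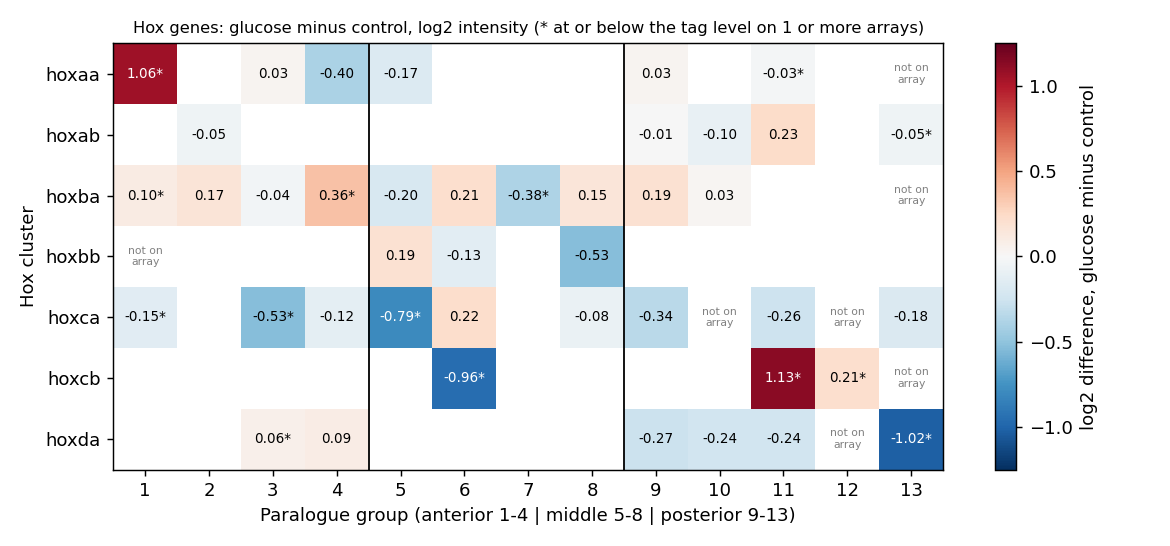
Log2 intensity in glucose minus control for each Hox gene (colour and number), by cluster (rows) and paralogue group (columns), means of 2 arrays a group; an asterisk marks a gene at or below the tag level on 1 or more arrays, and a blank a number with no gene in that cluster. Most squares are pale, and the darkest, from hoxd13a (-1.02) to hoxc11b (1.13), carry the asterisk.

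The gene that fell was hoxc6b, a middle Hox gene whose group in mouse marks the thoracic level of the trunk. Its intensity was 82.9 and 98.4 on the glucose arrays and 151 and 204 on the control arrays. Both glucose arrays lay below both control arrays and below the tag level of 117.7, while both control arrays lay above that level. On glucose replicate 2 the signal was above the brightest tag of that array, 79.1. The log2 difference was -0.96 with a standard error of 0.262 and a 95% interval from -1.51 to -0.41 (limma with trend, adjusted p = 0.0957). With the tag level taken as the glucose value, the control signal was 1.49-fold higher, a point estimate that carries no interval. The call lay close to the threshold and was lost without glucose replicate 1 (adjusted p = 0.279) and without control replicate 2 (adjusted p = 0.261), with differences of -0.83 and -0.74. In limma without the trend its adjusted p was 0.516, and 0 of 13628 probe sets (0%) passed that fit. In that fit 4 Hox genes, hoxc3a, hoxc5a, hoxc6b and hoxd13a, were lower at an unadjusted p under 0.05 (background 3.96%) and 0 were higher (background 4.50%). All 4 were among the 14 Hox genes at or below the tag level on 1 or more arrays. Of the 28 above it on all arrays, 0 were lower at that p, beside 188 of the 8395 tested probe sets above it on all arrays.

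The other gene with an unadjusted p under 0.05 was hoxc5a, of a group that in mouse patterns the neck and shoulder level of the spinal cord. It read 123 and 94.1 in glucose and 214 and 161 in controls, and the groups did not overlap. The log2 difference was -0.79 with a standard error of 0.252 and did not pass (limma with trend, adjusted p = 0.181). Without control replicate 2, which left a single control array, the difference was -0.997. The neighbour next to hoxc5a in cluster ca, hoxc6a, is the other copy of hoxc6b in the doubled genome. It read 311 and 315 in glucose and 245 and 294 in controls, higher in glucose on both arrays, with a log2 difference of 0.22 (adjusted p = 0.707). The copies hoxc6a and hoxc6b thus lay on opposite sides of 0, and the difference between them was not tested.

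**Figure D2:**
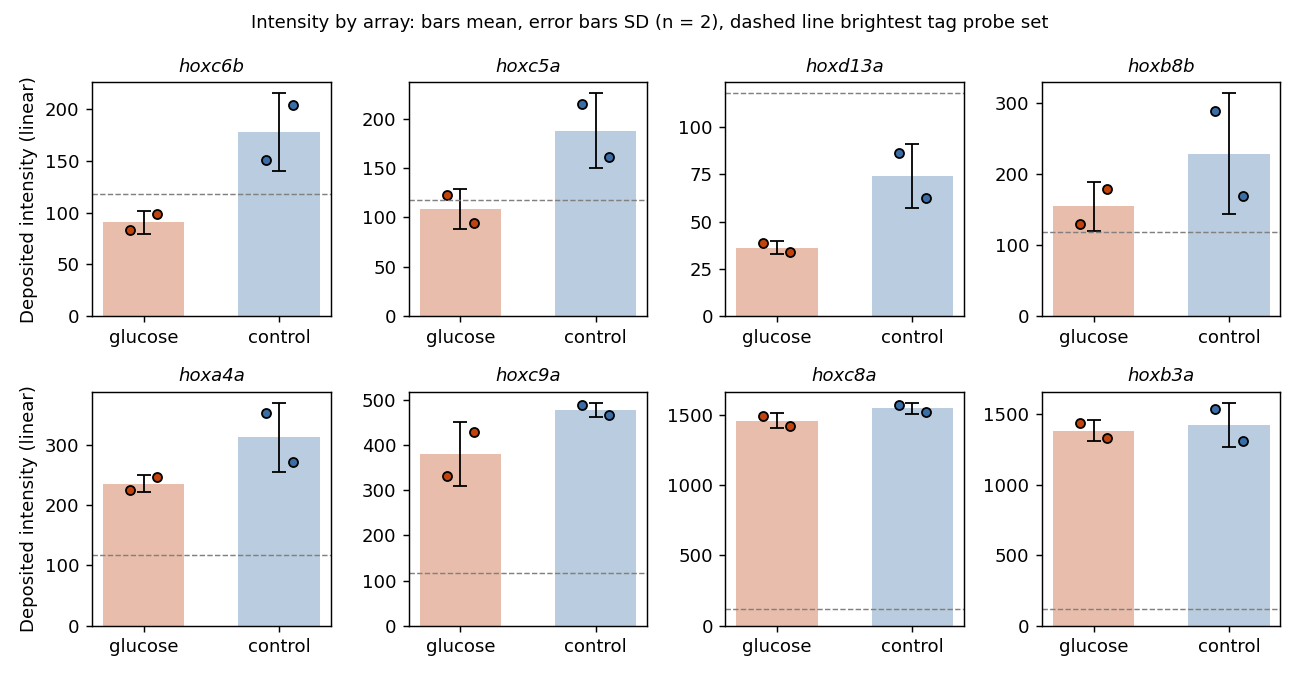
Deposited intensity on a linear axis of 8 Hox genes in glucose (left) and control (right) embryos; bars are means, error bars the SD of 2 arrays, points the arrays and the dashed line the tag level of 117.7. Both glucose arrays of hoxc6b lie under the dashed line and both control arrays above it, all 4 arrays of hoxd13a lie under it, and hoxc8a and hoxb3a lie far above it with groups close together. The genes shown are the 6 of smallest p and the bright hoxc8a and hoxb3a, all with a negative difference. The 17 of 42 Hox genes with a positive difference are not shown.

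Among the anterior Hox genes (groups 1 to 4), which pattern the hindbrain and the pharyngeal arches, 0 of 13 passed. The median log2 difference was 0.0312, with 7 genes higher and 6 lower, which became -0.0904 without glucose replicate 2 and -0.0348 without control replicate 2. The smallest unadjusted p belonged to hoxa4a, at 226 and 247 in glucose and 353 and 272 in controls. Its glucose arrays lay below both control arrays, and its difference of -0.40 did not pass (adjusted p = 0.451). The difference was -0.21 without control replicate 1.

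The next anterior gene by p was hoxc3a, with 69.3 and 71.3 in glucose and 97.1 and 106 in controls. All of these signals were below the tag level, and the difference was -0.53 (adjusted p = 0.569). hoxb4a, whose mouse counterpart is known for expanding blood stem cells in culture, had 114 and 148 in glucose and 111 and 92.1 in controls. Its arrays did not overlap, the glucose ones being higher, but only 1 of the 4 was above the tag level. The difference of 0.36 had a 95% interval from -0.21 to 0.94 (adjusted p = 0.67) and was 0.17 without glucose replicate 2.

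The hindbrain gene hoxb2a, of a group that patterns the hindbrain segments, read 826 and 748 in glucose and 681 and 721 in controls. The groups did not overlap, and the difference of 0.17 did not pass (adjusted p = 0.73). Its neighbour hoxb3a read 1434 and 1328 in glucose and 1534 and 1310 in controls, and these overlapped. The difference of hoxb3a was -0.0385, with a 95% interval from -0.32 to 0.24. Its standard error, 0.132, was among the smallest of the set. In the trend fit that error follows brightness more than the spread of the gene's own arrays. hoxa2b, which sets the identity of the second pharyngeal arch, differed by -0.0541, with an interval from -0.43 to 0.32.

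The dimmest anterior gene, hoxa1a, of the earliest group to be switched on, read 44.3 and 44.4 in glucose and 8.27 and 54.3 in controls. The control arrays lay on both sides of the glucose arrays. The difference of 1.06 (adjusted p = 0.726) turned to -0.29 without control replicate 1, and all 4 signals were under the tag level. The remaining anterior genes, hoxb1a, hoxc1a, hoxa3a, hoxd3a, hoxc4a and hoxd4a, differed by between -0.15 for hoxc1a and 0.10 for hoxb1a.

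The middle Hox genes (groups 5 to 8), active in the trunk, had the lowest median of the 3 classes, -0.15 over 12 genes, with 8 lower and 4 higher. It ranged from -0.20 without glucose replicate 2 to -0.0890 without control replicate 1. The 1 gene that fell, hoxc6b, is of this class. In hoxb8b, of a group known in mouse from the spinal cord and the trunk, the arrays read 130 and 179 in glucose and 288 and 169 in controls. The groups overlapped, since the higher glucose array exceeded the lower control array. The difference of -0.53 did not pass (adjusted p = 0.447). It was -0.15 when control replicate 1 was left out and -0.92 when control replicate 2 was left out. The only gene of group 7, hoxb7a, read 70.8 and 83.5 in glucose and 100.4 and 100.2 in controls, all under the tag level, a difference of -0.38 (adjusted p = 0.705).

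The bright middle genes differed less. hoxc8a read 1494 and 1421 in glucose and 1572 and 1516 in controls, a difference of -0.0839 with an interval from -0.35 to 0.18. hoxb8a read 691 and 668 in glucose and 615 and 608 in controls, a difference of 0.15 in the other direction (adjusted p = 0.757). The groups did not overlap in either gene, and neither passed. The remaining middle genes were hoxa5a, hoxb5a and hoxb6b, which differed by -0.17, -0.20 and -0.13, and hoxb5b and hoxb6a, which differed by 0.19 and 0.21.

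Of the 17 posterior Hox genes (groups 9 to 13), which act in the tail and in the fin buds, 0 passed. Their median was -0.0545, with 11 lower and 6 higher, and -0.14 without control replicate 2. hoxd13a, the last gene of its cluster and known from the outer fin bud and the hind end of the embryo, read 38.7 and 33.8 in glucose and 86.0 and 62.2 in controls. Its groups did not overlap, and all 4 signals were under the tag level. The difference of -1.02 had a 95% interval from -2.04 to 0.00549 and did not pass (adjusted p = 0.44).

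The posterior genes of cluster da lay on the same side of 0 as hoxd13a, with -0.27 for hoxd9a, -0.24 for hoxd10a and -0.24 for hoxd11a. hoxd10a, a gene of the hind trunk, read 442 and 357 in glucose and 462 and 474 in controls. Both glucose arrays lay lower, 1 of them by little (adjusted p = 0.653), and the difference was -0.0806 without glucose replicate 2. hoxc9a, of a group that in mouse defines thoracic motor neurons, read 331 and 430 in glucose and 489 and 466 in controls. Its groups did not overlap, with a difference of -0.34 (adjusted p = 0.482), which was -0.15 without glucose replicate 1.

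Other posterior genes lay near 0 or above it. The group 9 genes of clusters aa and ab, whose mouse counterpart Hoxa9 acts in blood progenitors, differed by 0.0327 for hoxa9a and -0.00513 for hoxa9b, with intervals from -0.38 to 0.45 and from -0.37 to 0.36. A second, dimmer probe set of hoxa9a read 105 and 114 in glucose and 143 and 129 in controls, without overlap, and differed by -0.31 (adjusted p = 0.707). hoxa11b, a gene of the fin bud, read 366 and 283 in glucose and 268 and 280 in controls. Its glucose arrays were both higher, 1 of them by little, and the difference of 0.23 (adjusted p = 0.699) was 0.0477 without glucose replicate 1.

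The dim genes of cluster cb scattered widely. hoxc11b read 96.3 and 23.7 in glucose and 13.1 and 36.5 in controls, and its difference of 1.13 (adjusted p = 0.674) was 0.12 without glucose replicate 1 and 0.39 without control replicate 1. hoxc12b read 79.6 and 79.5 in glucose and 43.7 and 109 in controls. Its groups overlapped, with a difference of 0.21 (adjusted p = 0.901) that was -0.45 without control replicate 1. The remaining posterior genes, hoxb9a, hoxb10a, hoxa10b, hoxa11a, hoxc11a, hoxa13b and hoxc13a, differed by between -0.26 for hoxc11a and 0.19 for hoxb9a.

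**Figure D3:**
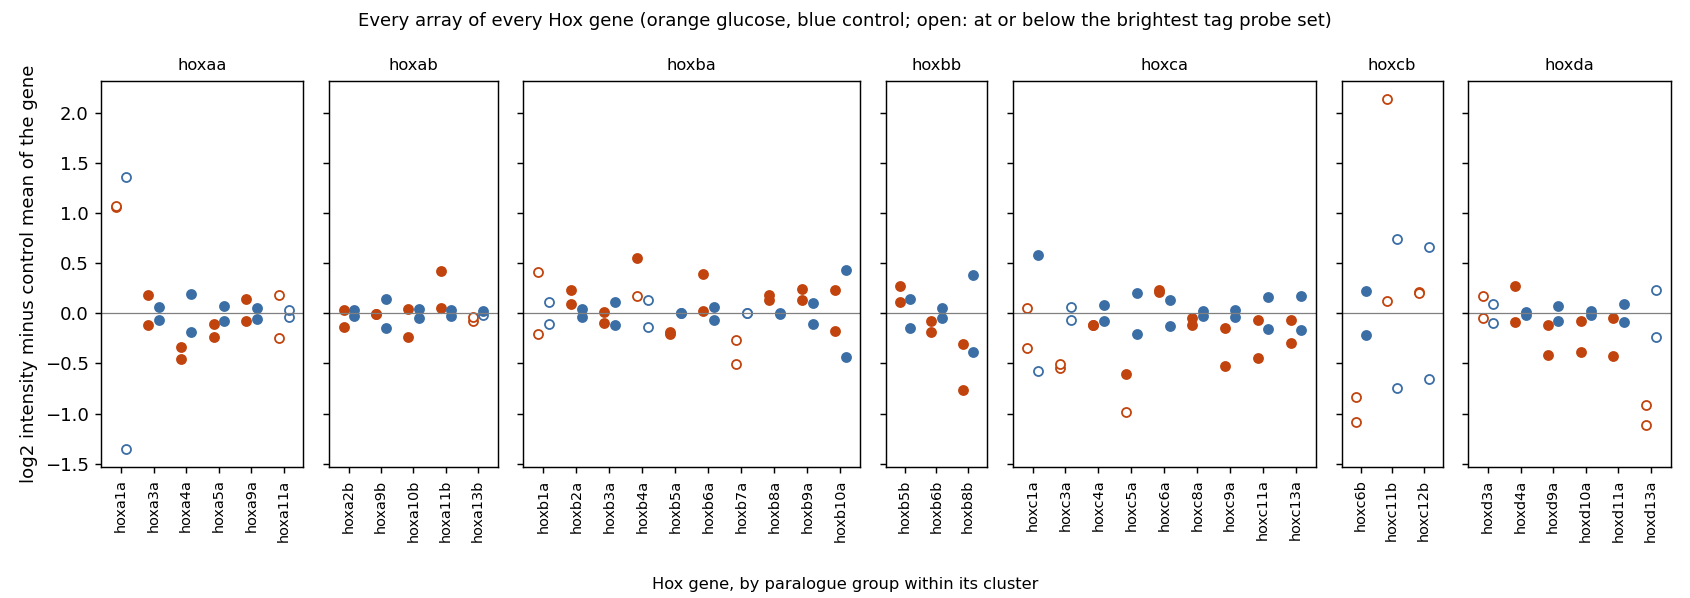
Log2 intensity of every Hox gene on every array, less the control mean of that gene, by cluster and by paralogue group within it; orange points are glucose arrays (left of each pair), blue points control arrays, and open points lie at or below the tag level. Points of hoxc6b, hoxc5a and hoxd13a separate by group, and those of hoxa1a and hoxc11b, all open, spread the most.

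By cluster, the medians ranged from -0.24 to 0.21. The 1 gene past the test, hoxc6b, lies in cluster cb, and every other cluster had 0. In cluster ca 8 of 9 genes were lower, with a median of -0.18 that dropping control replicate 1 moved to -0.0578 and dropping control replicate 2 to -0.35. The 1 gene of this cluster that was higher, hoxc6a, lies between hoxc5a and hoxc8a, which were both lower. In cluster da 4 of 6 were lower, with a median of -0.24 that dropping glucose replicate 2 moved to -0.0855 and dropping glucose replicate 1 to -0.40. In cluster ba 7 of 10 were higher, with a median of 0.13 that was 0.0689 without control replicate 2 and turned to -0.0286 with the mean of all probe sets of each gene. The medians of clusters aa (0.00136, 6 genes), ab (-0.0541, 5 genes) and bb (-0.13, 3 genes) rested on few genes. That of cb (0.21, 3 genes) was the value of hoxc12b. The median of aa ran from -0.18 without glucose replicate 2 to 0.16 without glucose replicate 1, and that of ab was 0.0293 without glucose replicate 1.

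In 15 of the 42 genes both glucose arrays lay below both control arrays, against 20.3% of all tested probe sets, and in 6 both lay above, against 20.7%. As shares, that is 35.7% of the Hox genes below and 14.3% above. The 15 genes were hoxa4a, hoxa5a, hoxa13b, hoxb5a, hoxb6b, hoxb7a, hoxc3a, hoxc4a, hoxc5a, hoxc6b, hoxc8a, hoxc9a, hoxd9a, hoxd10a and hoxd13a. By class they were 3 of 13 anterior, 7 of 12 middle and 5 of 17 posterior genes, and 5 of the 9 genes of cluster ca. The 6 genes in the other direction were hoxb2a, hoxb4a, hoxb8a, hoxb9a, hoxc6a and hoxa11b, of which 4 lie in cluster ba. These counts describe the arrays and carry no test, since the genes share the arrays and were chosen as a family. They also depend on the probe set. Dimmer probe sets of hoxb2a and hoxb9a had both glucose arrays below both control arrays, and those of hoxb8a overlapped, with -0.0409 and -0.27. Among the 15 genes, a dimmer probe set of hoxc8a had both glucose arrays above, and that of hoxb7a had both below.

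Brightness went with the size of the differences. The median SD within groups over all tested probe sets was 1.03 log2 units at a mean log2 intensity from 4 to 5, 0.275 from 6 to 7 and 0.108 from 10 to 11. In each step of 1 log2 unit, the Hox genes were set beside all tested probe sets of that step, and 5 of 42 (11.9%) lay outside the 5th to 95th percentile of differences, near the 10% of all probe sets that lie outside by construction. They were hoxc6b, hoxc5a, hoxb8b and hoxa4a on the low side and hoxc11b on the high side. Among the 28 genes above the tag level on all arrays, the differences ran from -0.53 for hoxb8b to 0.23 for hoxa11b and had a median of -0.0690, with 17 lower and 11 higher. Over the 8395 tested probe sets above that level on all arrays, the median was 0.00897.

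**Figure D4:**
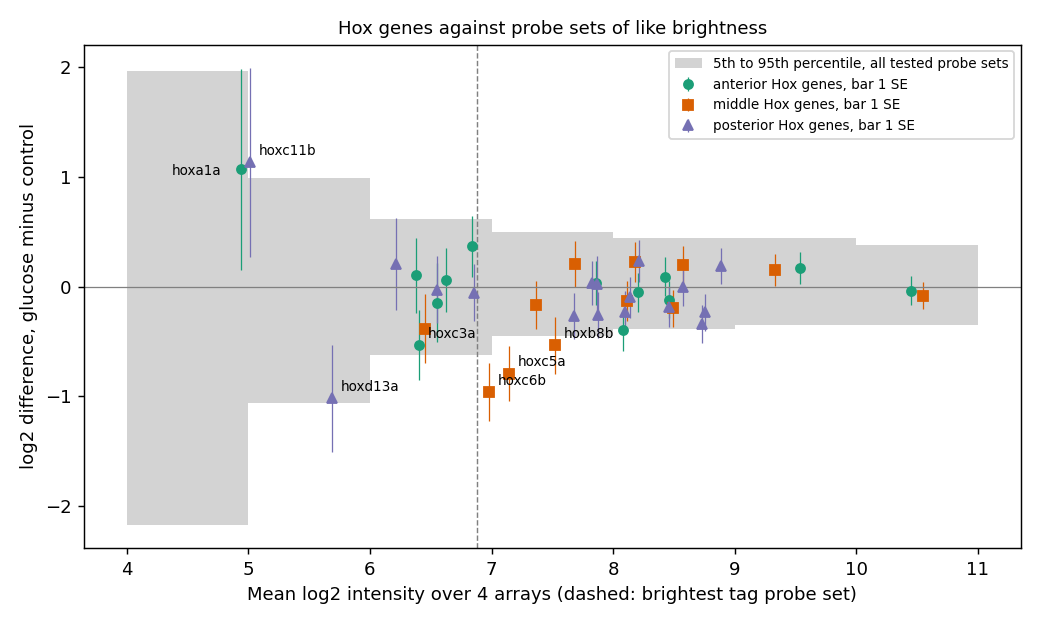
Log2 difference, glucose minus control, of each Hox gene against its mean log2 intensity, with bars of 1 standard error from limma with trend; grey bands hold the 5th to 95th percentile of all tested probe sets in each step of 1 log2 unit, and the dashed line is the tag level. Above the tag level most Hox genes lie inside the band, and the errors widen to the left of it.

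A further 17 probe sets read 13 of the 42 genes. Of these, 15 were tested and 0 passed in limma with trend, and 10 lay at or below the tag level on all 4 arrays. The sign of the difference matched that of the brightest probe set for 6 of the 17. For hoxb7a and hoxb8b the dimmer probe set was lower in glucose too, with -0.56 and -0.87, both from signals under the tag level. Several of the 17, these among them, have the name of a brighter probe set with an A in place of an S. Which strand each reads was not checked, so a like sign is not taken as a second reading of the gene. The brightest probe sets of hoxb9a, hoxc8a, hoxc11a, hoxc13a and hoxd11a also have an A in that place. Their strand was not checked either. For hoxb9a both probe sets were above the tag level on all arrays, and they differed in sign, 0.19 and -0.12. The same held for hoxd4a, with 0.0904 and -0.0555, and for the 2 brighter probe sets of hoxb8a, with 0.15 and -0.0409. The dimmer probe set of hoxa9a also differed in sign from the brighter one, with -0.31 against 0.0327. So did the dimmer probe sets of hoxc8a, with 0.16 and 0.86 against -0.0839, from signals under the tag level on all arrays. In the latter of them both glucose arrays lay above both control arrays. For hoxb2a the dimmer probe set differed by -0.49 (adjusted p = 0.526), against 0.17 for the bright one, and for hoxc11a another probe set differed by 0.52, against -0.26. hoxc6b, hoxc5a and hoxd13a had 1 probe set each, so no other probe set bears on their values. In the RefSeq table the span of hoxc3a also covers hoxc4a, hoxc5a, hoxc6a, hoxc8a and hoxc9a, and that of hoxb3a covers hoxb4a, hoxb5a and hoxb6a. The labels do not say which transcripts of these spans each probe set reads.

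The lists of genes around the Hox system gave no calls by the same fit over all tested probe sets. Of 12 tested Hox cofactor genes 0 passed, with 7 higher and 5 lower and a median of 0.0254. The member with the smallest p was meis1b, a cofactor also known from the hindbrain and blood, at 1854 and 1904 in glucose and 2485 and 2277 in controls. Its groups did not overlap, and its difference of -0.34 did not pass (adjusted p = 0.244). pbx3b, another cofactor, differed by 0.29 (adjusted p = 0.502).

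Of 17 retinoic acid pathway genes 0 passed, with 10 higher and 7 lower and a median of 0.12. The retinoid receptor gene rxrbb differed by -0.81 (adjusted p = 0.33) and read under the tag level on 3 of 4 arrays. crabp2b, which encodes a retinoic acid carrier, differed by -0.33 (adjusted p = 0.497). aldh1a2, the enzyme that makes retinoic acid in the trunk, differed by -0.0589, and cyp26a1, an enzyme that breaks it down and a known target of it, by 0.28 (adjusted p = 0.927 and 0.592). These last genes were chosen for their role after their values were seen.

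Of 10 tested tailbud and posterior axis genes 0 passed, with a median of -0.0588, and only 2 of the 10 lay above the tag level on all arrays. The homeobox gene evx2, which lies beside the posterior end of a Hox cluster, read 95.3 and 115 in glucose and 18.8 and 112 in controls, all under the tag level, and did not pass (adjusted p = 0.441). tbxta, the notochord and tailbud Brachyury gene, differed by 0.18. Of 17 Polycomb and Trithorax genes 0 passed, with 13 higher and 4 lower and a median of 0.16. The Polycomb gene eed read 875 and 866 in glucose and 745 and 618 in controls, a difference of 0.36 that did not pass (adjusted p = 0.348). The groups did not overlap in eed, and the Trithorax gene kmt2ba differed by 0.53 (adjusted p = 0.354).

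Homeobox genes of the head, which lie outside the Hox clusters, had 19 higher and 12 lower of 31 tested, a median of 0.0854 and 0 calls. Their smallest p values belonged to otx2a, with 87.7 and 66.0 in glucose and 12.3 and 35.5 in controls, all under the tag level (adjusted p = 0.255), and to the eye gene vsx1, with a difference of -0.42 (adjusted p = 0.259). The lists for hindbrain segmentation (9 tested, median -0.0399), spinal cord (10 tested, 0.0814) and pectoral fin bud (4 tested, -0.11) also had 0 calls. In them efnb2a differed by 0.50, the glial gene gfap by -0.30, the motor neuron gene isl1a by -0.24 and hand2 of the fin bud by 0.28, with adjusted p between 0.426 and 0.525. sema3ab read 4.22 and 9.48 in glucose and 58.1 and 41.0 in controls, all under the tag level, so that it passed the filter through the control arrays alone and no size is given (adjusted p = 0.471). tbx5a of the fin bud was also under the tag level on all arrays (adjusted p = 0.722).

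The tissues of a whole embryo were present by their markers. All 15 marker genes on the array, for red cells, muscle, epidermis, neurons, lens and notochord, lay above the tag level on all 4 arrays, and the hatching gland markers were not named on it. The 4 neuron markers elavl3, elavl4, gap43 and stmn2a had differences from -0.23 to -0.0978, all lower in glucose, and 0 passed. The 3 epidermis markers, from -0.16 to -0.0481, and the 2 muscle markers, at -0.0545 and -0.0183, were all lower too, and 0 passed. Of the 3 red cell markers 2 rose, hbbe2 by 0.71 and alas2 by 0.69 (adjusted p = 0.0025 and 0.0142). The lens marker cryaa differed by -0.39 and the notochord markers col2a1a and shha by 0.22 and -0.27, without passing. In whole embryos fewer cells of a type and less RNA per cell cannot be told apart. The part of these marker differences in the Hox differences was not tested.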

How the data were processed

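Total RNA of whole zebrafish embryos was extracted with Trizol, labelled with biotin and read on 4 Affymetrix arrays, per the labels' protocols. The authors deposited linear intensity values, 1 for each probe set on each array. GCRMA is named in the submitters' processing notes, without a version. After trimming 2% at each end the intensities have the same mean on every array, between 500.15 and 500.16, so the method that made them, and any background subtraction, is unknown. Groups and replicate numbers come from the sample titles. Median intensity was between 171 and 175. The number of arrays limits the precision.

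Of 15617 probe sets, 115 controls were left out, and 10795 carry 1 gene in the platform annotation, 135 several and 4572 none listed. Symbols were updated by gene identifier through the RefSeq table (GRCz12tu), which matched 10711, all 42 Hox genes among them. Log2 was taken with no further scaling, and 13628 probe sets with log2 of at least 5 on at least 2 arrays were tested by limma 3.58.1 with an intensity trend in R 4.3.3, without covariates, with a Benjamini-Hochberg threshold of 0.10. Tables and plots used Python 3.11.15, pandas 2.3.3 and matplotlib 3.10.9.

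The Hox genes, the lists, the tests and the use of the trend were chosen with earlier results of these data known. The fit without trend calls 0 probe sets, so each call here depends on the trend. All Hox genes may be named. Values on every array were to be given for those past the threshold, those at an unadjusted p under 0.05, and the smallest p of each paralogue group and cluster. Values of hoxa2b, hoxb3a, hoxb8a, hoxc6a, hoxc8a, hoxa9a and hoxa9b were added for their role or brightness. Of each list, members past the threshold and the 2 with the smallest p were named. In simulated arrays with 200 of 13628 probe sets changed in each of 5 runs, at mean log2 above 7, the trend fit found 39.4% of the changes of 1.5-fold, 82.1% of those of 2-fold and 99.7% of those of 4-fold, and 11.6% of its calls were false. All probe sets of like brightness were given the same simulated spread, which favours the trend fit. The shares of changes found may thus be too high for the real arrays, and the share of false calls need not hold for them. Changes in dimmer probe sets, such as that of hoxc6b at a mean log2 of 6.98, were not simulated. Deviations of arrays with the same replicate number correlated with r = -0.0228 over 13628 probe sets, so no strong shared effect of the number was seen. With 2 arrays a group this cannot tell whether replicates of the same number shared a clutch. Alternatives were leaving out each array, a replicate block, other filters, quantile and median scaling, an offset of 16, no trend, robust eBayes, other thresholds and a mean over the probe sets of each gene.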

Additional observations from a re-analysis of the deposited data

How the results depend on the processing

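With 2 arrays a group, calls depend on single arrays, and dim probe sets limit 14 of the 42 Hox genes. The 176 higher and 97 lower probe sets ranged from 88 to 578 and from 59 to 356 when 1 array was left out. They were 117 and 57 with no filter, 0 and 0 without the trend, 110 and 51 at an adjusted p under 0.05, and 311 and 275 by at least 1.5-fold at an unadjusted p under 0.05. The 1 Hox gene lower became 0 with no filter, quantile normalization, no trend or an adjusted p under 0.05. At the unadjusted p with 1.5-fold, 2 Hox genes were lower. Leaving out glucose replicate 1 lost the call, and without control replicate 2 hoxc6b lost it while other Hox genes passed. Hox genes called higher were 0 throughout. For hoxc6b the adjusted p was 0.252 with no filter, where 15502 probe sets were tested, 0.117 with quantile normalization, 0.516 without the trend and between 0.261 and 0.279 in the fits that lost the call by leaving out glucose replicate 1 or control replicate 2. A fit with 1 array left out assumes that the lone array of a group varies like the others. The replicate block gave 1 Hox gene lower, and whether the replicate numbers pair the arrays is not known.

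Leaving out 1 array, the Hox median ran from -0.13 to -0.0444, the anterior from -0.0904 to 0.0766, the middle from -0.20 to -0.0890 and the posterior from -0.14 to -0.0367. The cluster medians ran from -0.18 to 0.16 (aa), -0.0835 to 0.0293 (ab), 0.0689 to 0.13 (ba), -0.19 to -0.0768 (bb), -0.35 to -0.0578 (ca), -0.45 to 0.87 (cb) and -0.40 to -0.0855 (da). The tag-level filter kept probe sets above the brightest tag of each array itself, on both arrays of either group. With it the anterior median was -0.0385 over 7 genes, the posterior -0.0964 over 13 and cb -0.96, the value of hoxc6b alone. hoxc6b passed this filter through the control arrays alone, since its signal on glucose replicate 1 lay below the brightest tag of that array. With the mean of all probe sets the anterior median was -0.0385 and that of ba -0.0286. The cause of these last shifts was not tested. Single genes were followed only if they had an unadjusted p under 0.05 or the smallest p of a paralogue group or cluster. Among these, signs turned without control replicate 1 for hoxa1a (-0.29 to 2.42 with 1 array left out) and hoxc12b (-0.45 to 0.87). That of hoxb2a turned (-0.16) with the mean of its probe sets. The signs of the other Hox genes were not followed. Of all 42 Hox genes, between 24 and 28 were lower under the settings that kept them all, a count added after seeing the data. It was 24 of 39 with a filter at a mean log2 of 6 and 20 of 31 with the tag-level filter.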
